A study of Rattus norvegicus with 48 samples.

Results

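Hypoxia-inducible genes are described here in liver biopsies of 48 male Wistar rats of 300 to 350 g, each measured on 1 array. The 10 members are Hk2, Pfkfb3, Eno1, Ldha, Bnip3, P4ha2, Vegfa, Stc1, Cox4i2 and Egln3, out of 14506 genes with a single platform symbol. Each gene is given by its probe set of highest mean over the 48 arrays. Stc1 and Cox4i2 had been picked because they ranked high in the interaction of pre- and postconditioning in these same arrays. Their values are therefore a description without a test in every contrast that overlaps that interaction, and counts there cover the other 8 members.

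The 5 groups were IPC+IPO (n = 10), IPO (n = 10), IPC (n = 10), IRI (n = 10) and sham (n = 8). All rats were anaesthetised with Hypnorm and Midazolam and had their abdomen opened, and sham rats had nothing further. The 4 ischemic groups shared 30 min without blood flow to the whole liver, and the right lobe was sampled 30 min after flow returned. IRI livers had this insult alone. IPC (ischemic preconditioning) was a shorter occlusion of 10 min, released for 10 min, ahead of it. IPO (ischemic postconditioning) interrupted the start of reperfusion in 3 cycles, each a flow of 30 sec and then a clamping of 30 sec, and IPC+IPO combined both. Preconditioned livers thus had more ischemia and a longer operation, which cannot be told apart from an effect on the later insult. All groups were of the same strain, and the rats' age is not given in the sources used here. The liver label was borne out by its markers: albumin (Alb) had a mean of 13.21 to 13.32 log2 units in each of the 5 groups.

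Cells sense oxygen through prolyl hydroxylases, which use it to mark the alpha subunits of hypoxia-inducible factor (HIF) for destruction by the von Hippel-Lindau ubiquitin ligase. When oxygen falls, HIF-1α or HIF-2α persists, pairs with Arnt and binds the hypoxia response element of its target genes. In liver the response shifts metabolism toward glycolysis, restrains mitochondria and raises angiogenic signals. Of the members, Hk2 (hexokinase 2) phosphorylates glucose, and Pfkfb3 makes the fructose bisphosphate that stimulates glycolysis. Eno1 (enolase 1) and Ldha (lactate dehydrogenase A) act late in the pathway. Bnip3 is a mitochondrial receptor for mitophagy, Cox4i2 the alternative isoform of a cytochrome c oxidase subunit, and P4ha2 a collagen prolyl hydroxylase subunit. Vegfa (vascular endothelial growth factor A) and Stc1 (stanniocalcin 1) are secreted, and Egln3 is one of the oxygen-sensing prolyl hydroxylases.

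The promoters of the 4 members that passed the test between IPO and IRI livers are printed so that their response element letters can be seen beside the values. RefSeq (build GRCr8) held a promoter for 8 members, and Stc1 and Cox4i2 were without an entry. Each sequence runs 5′ to 3′ on the gene's strand, from 250 bases before the annotated start to 50 after it, at chr4:116841226-116841525 (minus) for Hk2, chr1:203154913-203155212 (minus) for Bnip3, chr5:166002617-166002916 (plus) for Eno1 and chr10:38743644-38743943 (plus) for P4ha2. Capitals mark the core letters ACGTG and GCGTG of the hypoxia response element on either strand.
Hk2: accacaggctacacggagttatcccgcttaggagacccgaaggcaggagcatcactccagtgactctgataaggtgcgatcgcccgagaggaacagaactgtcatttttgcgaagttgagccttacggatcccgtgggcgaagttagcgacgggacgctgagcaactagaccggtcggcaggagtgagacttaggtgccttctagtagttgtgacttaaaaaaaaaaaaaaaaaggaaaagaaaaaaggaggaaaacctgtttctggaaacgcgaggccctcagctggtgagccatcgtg
Bnip3: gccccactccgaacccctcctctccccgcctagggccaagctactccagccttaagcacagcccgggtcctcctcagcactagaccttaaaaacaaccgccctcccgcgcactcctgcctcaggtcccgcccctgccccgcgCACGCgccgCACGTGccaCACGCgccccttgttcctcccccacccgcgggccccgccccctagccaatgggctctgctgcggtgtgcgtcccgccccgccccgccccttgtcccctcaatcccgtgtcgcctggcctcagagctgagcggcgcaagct
Eno1: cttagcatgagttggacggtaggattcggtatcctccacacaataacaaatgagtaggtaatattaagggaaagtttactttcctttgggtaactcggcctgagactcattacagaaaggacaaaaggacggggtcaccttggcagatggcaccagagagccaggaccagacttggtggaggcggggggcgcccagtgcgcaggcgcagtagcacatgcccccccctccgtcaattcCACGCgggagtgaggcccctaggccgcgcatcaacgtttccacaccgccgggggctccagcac
P4ha2: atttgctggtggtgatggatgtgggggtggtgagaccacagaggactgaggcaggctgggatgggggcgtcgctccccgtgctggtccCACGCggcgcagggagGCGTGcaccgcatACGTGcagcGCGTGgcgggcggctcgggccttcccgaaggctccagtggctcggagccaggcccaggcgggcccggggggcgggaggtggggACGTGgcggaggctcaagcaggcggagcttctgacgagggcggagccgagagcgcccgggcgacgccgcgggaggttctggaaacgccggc
In Bnip3 the palindrome CACGTG holds ACGTG on both strands, so that 2 matches to ACGTG and 2 to GCGTG were counted. P4ha2 had 2 and 3 matches, and Eno1 had 1 match, to GCGTG. These letters were not in the Hk2 window. Among the members not printed, Ldha had 3 matches to each motif, Pfkfb3 had 2 to ACGTG, and the windows of Vegfa and Egln3 had none. Of 27457 promoters of this length, 42.9% held at least 1 of the motifs, 19.7% ACGTG and 31.1% GCGTG, so a match is common and is a description only. The members that were lower in IPO livers (Hk2, Bnip3) and those that were higher (Eno1, P4ha2) each included a promoter with many matches and a promoter with 1 or none.

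The values are log2 expression after robust multi-array averaging (RMA), and levels of different probe sets are not compared with each other. By mean level, Stc1, Egln3, Cox4i2 and Hk2 lay at percentiles 12.5, 17.04, 21.6 and 26.2 of all genes, and so among the dimmer ones. Pfkfb3 and P4ha2 lay at 46.1 and 68.4, and Vegfa, Bnip3, Eno1 and Ldha between 87.2 and 99.1. The spread of an array, taken as the SD of its log2 values over all genes, ranged from 1.498 to 1.965. It averaged 1.86 in IPC+IPO, 1.91 in IPO, 1.85 in IPC, 1.77 in IRI and 1.72 in sham arrays, so it moved with the groups. The array of IPC+IPO rat 38 (1.498) and that of IRI rat 7 (1.537) had the lowest spread, and IRI rat 7 correlated least with the other arrays (mean r = 0.888, highest 0.980). The comparison of IPO with IRI livers, in which most members were called, is also given without these 2 arrays. The labels give no batch. In bulk tissue fewer cells of a type and less RNA per cell cannot be told apart, and the number of arrays limits the precision.

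**Figure D1:**
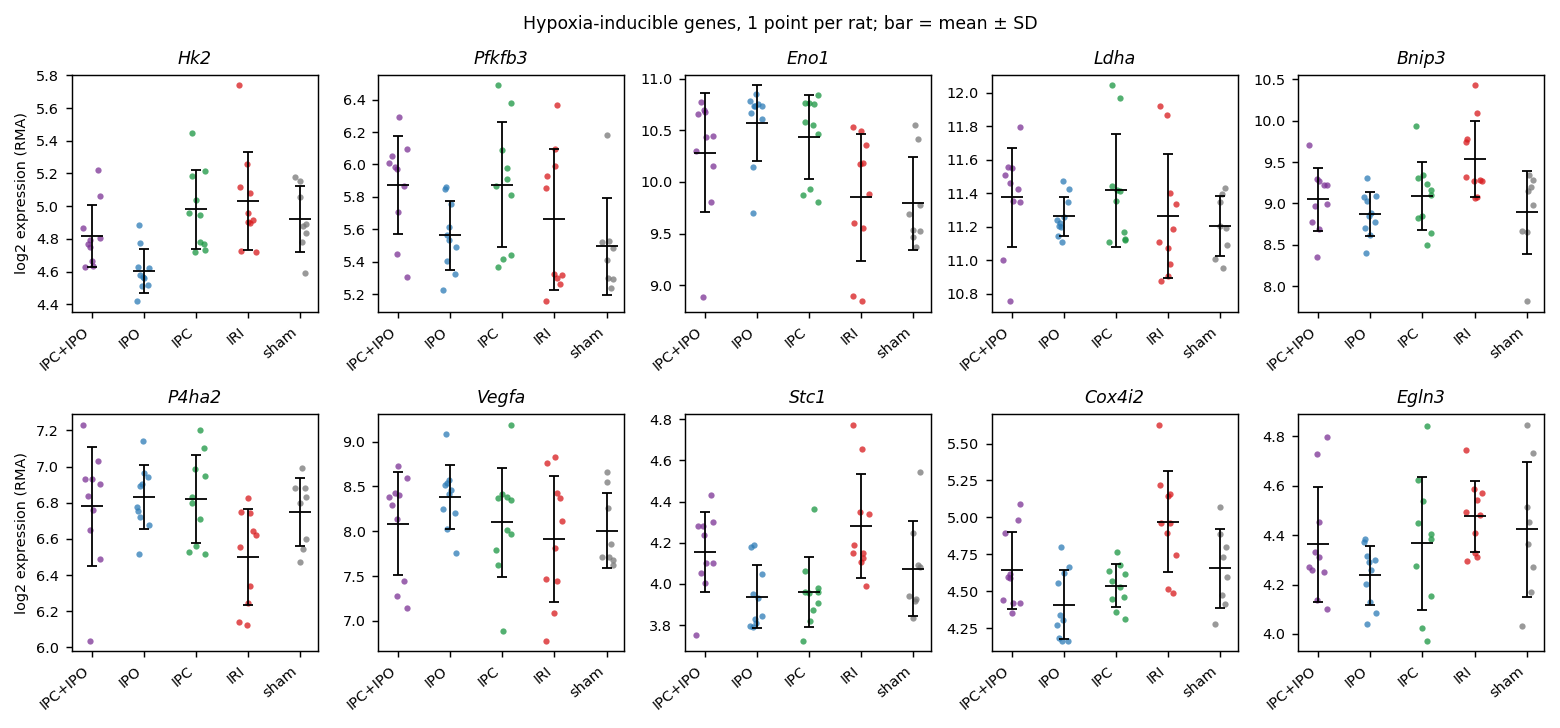
Log2 expression (RMA, y axis) of the 10 hypoxia-inducible genes in each rat, by group (x axis; IPC+IPO, IPO, IPC and IRI n = 10 each, sham n = 8). Points are rats and black bars are the mean ± SD; each panel has its own y axis, which does not start at 0. Hk2 is lowest in the IPO group (mean 4.61), Bnip3, Stc1 and Cox4i2 are highest in the IRI group (means 9.53, 4.28 and 4.97), and the ranges of all groups overlap.

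Of the comparisons made, hypoxia-inducible genes were called in those of IPO livers with IRI and with sham livers, and whether the IPO difference itself differed from that of the other conditioned groups was not tested. Against IRI livers, IPO livers had less Hk2 and Bnip3 and more Eno1 and P4ha2, so the members did not move in a single direction. Tests were two-sided with limma over all 14506 genes, with Benjamini-Hochberg adjustment and a threshold of 0.05. With that rule 4 of 8 members were called, against 22.8% of all genes (12.4% higher and 10.4% lower in IPO livers). The median difference of the 8 members was -0.05 log2 units, close to the -0.04 of all genes. IRI livers are the reference of the IPC+IPO, IPO and IPC comparisons, so these share 10 arrays.

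Hk2 ran from 4.42 to 4.89 in IPO livers (median 4.57) and from 4.72 to 5.74 in IRI livers (median 4.94). In IPO livers 8 of 10 values lay below every IRI value, and all 10 lay below the IRI median. The difference was -0.42 ± 0.10 log2 units (SE), that is 1.34-fold lower in IPO livers (adjusted p = 0.0118). IPO livers were also below sham livers, whose Hk2 ran from 4.59 to 5.18 (median 4.88), with a difference of -0.32 ± 0.11 (adjusted p = 0.0308). That call was lost on leaving out IPO rat 27 or sham rat 44, 46 or 47. Hk2 was 4.63 to 5.22 in IPC+IPO livers (median 4.78) and 4.72 to 5.45 in IPC livers (median 4.95). In the order of the 5 group means, the step between IPC+IPO and IPO (0.21) was the single step of any member that exceeded the larger SD of its 2 neighbours (0.191).

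Bnip3 ran from 8.40 to 9.31 in IPO livers (median 8.86), against 9.06 to 10.43 in IRI livers (median 9.30). In IPO livers 7 of 10 values lay below every IRI value. The difference was -0.66 ± 0.17 (SE), 1.58-fold lower in IPO livers, with an adjusted p of 0.0159. It did not pass between IPC+IPO and IRI livers (-0.48 ± 0.17, adjusted p = 0.132) or between IPC and IRI livers (-0.44 ± 0.17, adjusted p = 0.195). The ranges were 8.36 to 9.71 in IPC+IPO livers (median 9.11) and 8.50 to 9.93 in IPC livers (median 9.13). Sham livers ran from 7.82 to 9.35 (median 9.07), and the IPO mean of 8.87 lay near the sham mean of 8.89 (difference -0.02). Without sham rat 47, the lowest, that difference was -0.17 (adjusted p = 0.478).

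Eno1 moved the other way. It ran from 9.70 to 10.85 in IPO livers (median 10.73), against 8.85 to 10.53 in IRI livers (median 10.03). In IPO livers 8 of 10 values lay above every IRI value. The difference was 0.72 ± 0.21 (SE), 1.65-fold, with an adjusted p of 0.0212. Without IRI rat 7 it was 0.61 and no longer passed (adjusted p = 0.0687), and without IPC+IPO rat 38 as well it was 0.61 and passed (adjusted p = 0.0349). IPO livers were also 1.71-fold above sham livers, which ran from 9.37 to 10.55 (median 9.61), with an adjusted p of 0.0144, a difference of 0.78 that fell to 0.16 with array spread as a covariate. In IPC+IPO livers Eno1 ran from 8.88 to 10.77 (median 10.44), and in IPC livers from 9.81 to 10.84 (median 10.57). Over all 4 ischemic groups Eno1 was 0.49 ± 0.18 above sham (adjusted p = 0.0676), and without IPC+IPO rat 38 and IRI rat 7 this was 0.56 (adjusted p = 0.00904). With array spread as a covariate and all arrays kept, that difference was 0.085 ± 0.131 (adjusted p = 0.759).

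P4ha2 ran from 6.51 to 7.14 in IPO livers (median 6.83), against 6.12 to 6.83 in IRI livers (median 6.59). Of the IPO values, 5 of 10 lay above every IRI value. The difference was 0.33 ± 0.11 (SE), 1.26-fold, with an adjusted p of 0.0335. This call was lost in 8 of 20 fits that left out a rat of either group, IRI rat 7 among them, and without both arrays of lowest spread the adjusted p was 0.0508. IPC+IPO livers ran from 6.04 to 7.23 (median 6.87), IPC livers from 6.52 to 7.20 (median 6.81) and sham livers from 6.47 to 6.99 (median 6.82).

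Without both arrays of lowest spread the differences between IPO and IRI livers were -0.35 for Hk2 (adjusted p = 0.0242) and -0.64 for Bnip3 (adjusted p = 0.0278), and Hk2, Bnip3 and Eno1 passed. The other tested members did not pass with all arrays. Egln3 averaged 4.24 ± 0.12 in IPO livers and 4.48 ± 0.14 in IRI livers (SD, n = 10 each), a difference of -0.24 (adjusted p = 0.0651), or -0.21 without these arrays. Vegfa averaged 8.38 ± 0.36 in IPO livers and 7.91 ± 0.70 in IRI livers, a difference of 0.47 ± 0.24 (SE, adjusted p = 0.113), or 0.35 without them. Pfkfb3 averaged 5.56 ± 0.21 in IPO livers and 5.66 ± 0.43 in IRI livers. Ldha averaged 11.26 in both groups, with a difference of -0.002 ± 0.125 (SE). With a spread of 6.78 to 8.82 in IRI livers, Vegfa had the widest range of any member in that group.

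Array spread moved with these calls. Within groups, over the 48 arrays, the correlation of a member with array spread was 0.760 for Eno1, 0.578 for P4ha2 and 0.437 for Vegfa. It was -0.555 for Hk2, -0.482 for Cox4i2, -0.445 for Egln3 and -0.407 for Stc1, which are the 4 dimmest members. Bnip3 (0.235), Ldha (0.099) and Pfkfb3 (-0.039) were less related to it. These values are a description, since all genes of an array share its spread. With spread as a covariate in the fit, no member passed between IPO and IRI livers, where that fit called 2 of 14506 genes. The difference was -0.27 for Hk2 (adjusted p = 0.28), 0.26 for Eno1 (adjusted p = 0.593) and 0.15 for P4ha2 (adjusted p = 0.629). For Bnip3 it was -0.78 ± 0.185 (SE, adjusted p = 0.0858), and so no smaller than without the covariate. Between IPO and sham livers that fit gave 0.16 for Eno1 (adjusted p = 0.783) and -0.11 for Hk2 (adjusted p = 0.747), and called 0 of 14506 genes. The part of array spread in the differences of Hk2, Eno1 and P4ha2 was not tested beyond this fit.

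**Figure D2:**
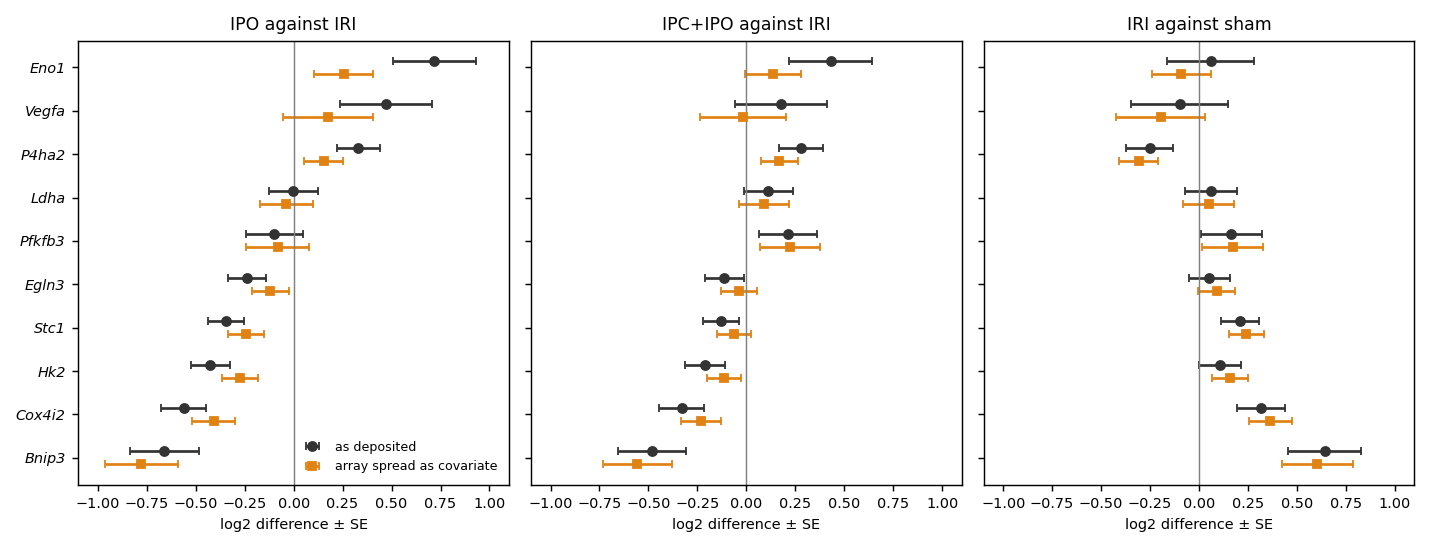
Differences in log2 expression ± SE (x axis) of the 10 hypoxia-inducible genes (y axis) for IPO against IRI, IPC+IPO against IRI and IRI against sham, with tested minus reference on each axis. Circles are the deposited values and squares are the fit with array spread as a covariate. For IPO against IRI, Eno1 lies at 0.72 as deposited and at 0.26 with the covariate, while Bnip3 lies at -0.66 and -0.78.

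**Figure D3:**
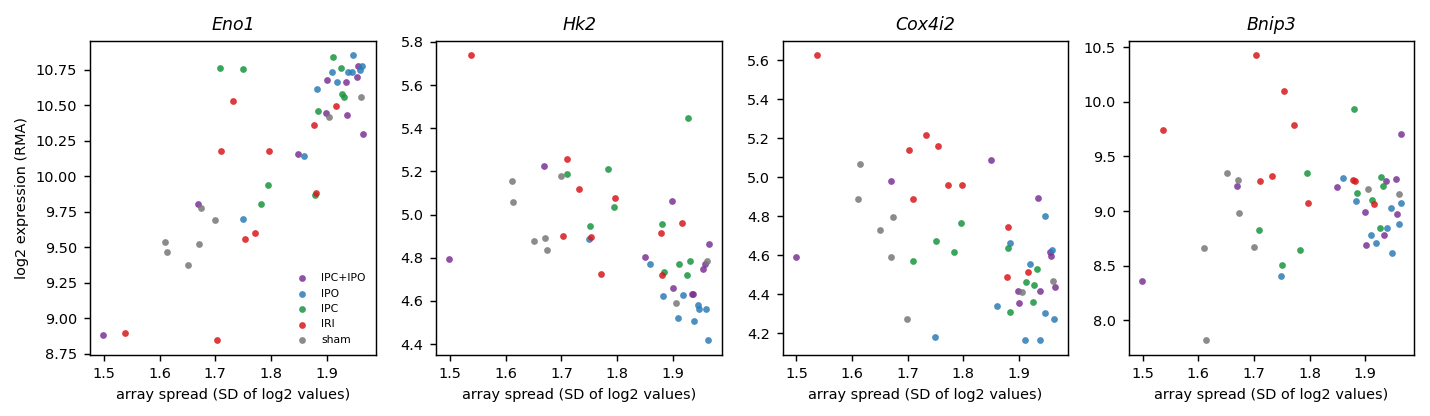
Log2 expression (RMA, y axis) of Eno1, Hk2, Cox4i2 and Bnip3 against array spread (SD of the log2 values of an array, x axis), with 1 point per rat and a colour per group. Eno1 is higher and Hk2 and Cox4i2 are lower on arrays of larger spread (within-group r 0.760, -0.555 and -0.482), and Bnip3 follows spread less (0.235).

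Ischemia and reperfusion without conditioning gave no call among the members. Between IRI and sham livers 0 of 8 members passed limma's test, against 0.241% of all genes, and 2 of 8 had an unadjusted p under 0.05, against 11.5% of all genes. Bnip3 had the largest difference, 0.64 ± 0.19 (SE), 1.56-fold higher in IRI livers (adjusted p = 0.102), and 4 of 10 IRI values lay above every sham value. With array spread as a covariate it was 0.60 ± 0.18 and passed (adjusted p = 0.0385), as did P4ha2, at -0.31 (adjusted p = 0.0494), in a fit that called 854 of 14506 genes for this comparison. Without sham rat 47, which had the lowest Bnip3, the difference was 0.49. P4ha2 as deposited was 0.25 log2 units lower in IRI livers (adjusted p = 0.407). Eno1 (0.06 ± 0.22), Ldha (0.06 ± 0.13), Vegfa (-0.10 ± 0.25), Pfkfb3 (0.17 ± 0.16), Hk2 (0.11 ± 0.11) and Egln3 (0.05 ± 0.10) had differences of about 1 SE or less.

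Markers of red cells moved in the same direction as Bnip3 across these groups. All 4 erythroid genes measured (Hbb, Hba-a3, Alas2 and Slc4a1) were higher in IRI than in sham livers, with a median difference of 0.78, and 0 of them passed. Against IRI livers all 4 were lower in IPO livers (median -0.39, of which Hbb passed at -0.67, adjusted p = 0.0411) and in IPC livers (median -0.47, 0 passed). Their summed linear level ran from 2360 to 9020 in IPC+IPO livers, 2380 to 8670 in IPO, 3080 to 8360 in IPC, 3340 to 10600 in IRI and 2490 to 8380 in sham livers. Within groups the erythroid level correlated at 0.275 with Ldha, 0.266 with Bnip3 and 0.213 with Cox4i2, and at -0.317 with Pfkfb3 and -0.293 with Vegfa. For the other members the correlation lay between -0.144 and 0.145. The part of the erythroid level in the members' differences was not tested. Endothelial markers (7 measured) had a median of 0.28 higher in IPO than in IRI livers, with 1 of 7 higher, and Kupffer markers (8) one of 0.39, with 2 of 8 higher. Of all genes, 12.4% were called higher and 10.4% lower in IPO than in IRI livers, 45.9% lay above 0, and the median was -0.04. Cholangiocyte (4), neutrophil (7) and lymphocyte (5) markers had medians of 0.15, -0.13 and -0.14 in that comparison. Of the neutrophil markers 1 passed as lower, and 2 of 7, S100a8 and S100a9, were above 0 without passing. S100a8 averaged 5.06 ± 0.79 in IPO and 4.35 ± 0.29 in IRI livers, and S100a9 6.74 ± 0.86 and 6.33 ± 0.37 (SD). Of 8 hepatocyte markers, 3 were higher (Tat, Tf and Fgb) and 1 was lower (Apoa1) in IPO than in IRI livers, with a median of 0.13 and 7 of 8 above 0. They averaged 12.17 to 12.36 in the 5 groups. Within groups Eno1 correlated at 0.616 with the endothelial, 0.601 with the Kupffer and -0.629 with the lymphocyte level, which are descriptions.

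Preconditioning gave no call among the members against IRI livers. Between IPC and IRI livers 0 of 8 members passed limma's test, against 0.0276% of all genes, and 3 of 8 had an unadjusted p under 0.05, against 19.3% of all genes. Those were Eno1 (0.58 ± 0.21, adjusted p = 0.176), P4ha2 (0.32 ± 0.11, adjusted p = 0.168) and Bnip3 (-0.44 ± 0.17, adjusted p = 0.195). Eno1 averaged 10.43 ± 0.41 in IPC livers and 9.85 ± 0.62 in IRI livers (SD, n = 10 each), and 6 of 10 IPC values lay above every IRI value. Between IPC+IPO and IRI livers 0 of 8 members passed, against 0% of all genes (3118 genes had an unadjusted p under 0.05), and 4 of 8 had an unadjusted p under 0.05. Those were Bnip3, P4ha2 (0.28 ± 0.11), Hk2 (-0.21 ± 0.10) and Eno1 (0.43 ± 0.21), with adjusted p between 0.132 and 0.225. Without IPC+IPO rat 38 the P4ha2 difference (0.36, adjusted p = 0.0284) and the Eno1 difference (0.59, adjusted p = 0.045) passed. The share of all genes that passed in that fit is not given here, so these calls cannot be set against it.

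Against sham livers, IPO livers had 2 of 8 members called, Eno1 higher and Hk2 lower, against 23.2% of all genes (15.4% higher and 7.76% lower in IPO livers), and so a share near the background. Between IPC and sham livers 0 of 8 members passed, against 6.58% of all genes, and 2 had an unadjusted p under 0.05, against 23.9% of all genes. Eno1 was 0.64 ± 0.22 higher (adjusted p = 0.071) and Pfkfb3 0.38 ± 0.16 higher (adjusted p = 0.125). Between IPC+IPO and sham livers 0 of 8 passed, against 3.62% of all genes, and 2 had an unadjusted p under 0.05 (23.6% of all genes did), with Pfkfb3 again 0.38 ± 0.16 higher (adjusted p = 0.133). For the mean of the 4 ischemic groups against sham, all 10 members could be tested and 0 passed, against 11.2% of all genes (8.98% higher and 2.25% lower in the ischemic groups). That split was 1303 to 326 genes as deposited and 759 to 373 after a renewed quantile normalization. Eno1 alone had an unadjusted p under 0.05 there, as did 28.2% of all genes. Stc1 (0.01 ± 0.08) and Cox4i2 (-0.02 ± 0.10) lay near 0 in that contrast.

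The main effects set both preconditioned groups against both others, and both postconditioned groups against both others. For preconditioning 0 of 10 members passed, against 0% of all genes (475 at an unadjusted p under 0.05), and Pfkfb3 (0.26 ± 0.10, adjusted p = 1) alone had an unadjusted p under 0.05. Pfkfb3 averaged 5.87 ± 0.30 in IPC+IPO and 5.88 ± 0.39 in IPC livers, against 5.56 ± 0.21 in IPO and 5.66 ± 0.43 in IRI livers (SD, n = 10 each). Sham livers ran from 5.24 to 6.18 (median 5.45). For postconditioning 0 of 10 passed, against 0% of all genes (3551 at an unadjusted p under 0.05), and 3 had an unadjusted p under 0.05. Those were Hk2 (-0.29 ± 0.07, adjusted p = 0.0989), Bnip3 (-0.35 ± 0.12) and Cox4i2 (-0.23 ± 0.08, both adjusted p = 0.125). The Hk2 contrast passed in 2 of 40 fits that each left out 1 rat.

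Stc1 and Cox4i2, chosen on the interaction, had their highest mean in IRI livers. The Stc1 medians of IPC+IPO and IRI livers were nevertheless equal. Stc1 ran from 3.75 to 4.43 in IPC+IPO livers (median 4.17), 3.79 to 4.19 in IPO livers (median 3.89), 3.73 to 4.37 in IPC livers (median 3.96), 3.99 to 4.77 in IRI livers (median 4.17) and 3.83 to 4.55 in sham livers (median 4.01). Of the IPC values 8 of 10, and of the IPO values 7 of 10, lay below every IRI value, and of the IPC+IPO values 1 of 10 did. The difference from IRI livers was -0.13 ± 0.09 in IPC+IPO, -0.34 ± 0.09 in IPO and -0.32 ± 0.09 in IPC livers (SE). Without IRI rat 7, which had the highest Stc1 (4.77), these were -0.07, -0.29 and -0.27, in the same order.

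Cox4i2 ran from 4.35 to 5.09 in IPC+IPO livers (median 4.59), 4.16 to 4.80 in IPO livers (median 4.32), 4.31 to 4.77 in IPC livers (median 4.55), 4.49 to 5.63 in IRI livers (median 4.96) and 4.27 to 5.07 in sham livers (median 4.66). All 10 IPO values and all 10 IPC values lay below the IRI median. The difference from IRI livers was -0.33 ± 0.12 in IPC+IPO, -0.56 ± 0.12 in IPO and -0.43 ± 0.12 in IPC livers (SE), and that of IRI from sham livers was 0.32 ± 0.12. The highest Cox4i2 value, 5.63, was that of IRI rat 7. Without this rat the differences from IRI livers were -0.26, -0.49 and -0.36, in the same order. Markers of smooth muscle and pericytes, cells known to express Cox4i2 in mice, had a median difference of -0.02 between IRI and sham livers over 11 genes, with 5 of 11 above 0 and 0 passing. Between IPO and IRI livers their median was 0.01, with 6 of 11 above 0, beside 45.9% of all genes. Of the 11, 2 (Acta2 and Pdgfrb) passed as higher in IPO livers, beside 12.4% of all genes. Others had a lower mean in IPO livers, such as Higd1b (3.68, against 3.91 in IRI livers) and Cnn1 (5.10, against 5.35). The Cox4i2 difference there was -0.56, and the part of these cells in it was not tested.

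The interaction is the amount by which the difference of IPC+IPO from IRI livers exceeds the sum of those of IPC and IPO livers. It was 0.67 ± 0.16 for Cox4i2 and 0.54 ± 0.13 for Stc1 (SE), ranks 10 and 12 of 14506 genes by moderated t. For the others it was -0.87 ± 0.30 for Eno1 (rank 379), 0.62 ± 0.25 for Bnip3 (rank 1081), -0.37 ± 0.16 for P4ha2 (rank 1528) and 0.26 ± 0.14 for Hk2 (rank 3756). Egln3, Vegfa, Pfkfb3 and Ldha ranked between 4747 and 13428. Since this contrast chose members, these are values and not tests. Over all genes, 0% passed the threshold in it. With array spread as a covariate the value was 0.52 for Cox4i2, 0.44 for Stc1, 0.73 for Bnip3 and -0.43 for Eno1. The Eno1 value leaned on single arrays: it was -0.71 without IPC+IPO rat 38 and -0.61 without both arrays of lowest spread. Without rat 38 the difference of Eno1 from IRI livers was 0.59 in IPC+IPO livers, against 0.58 in IPC livers.

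**Figure D4:**
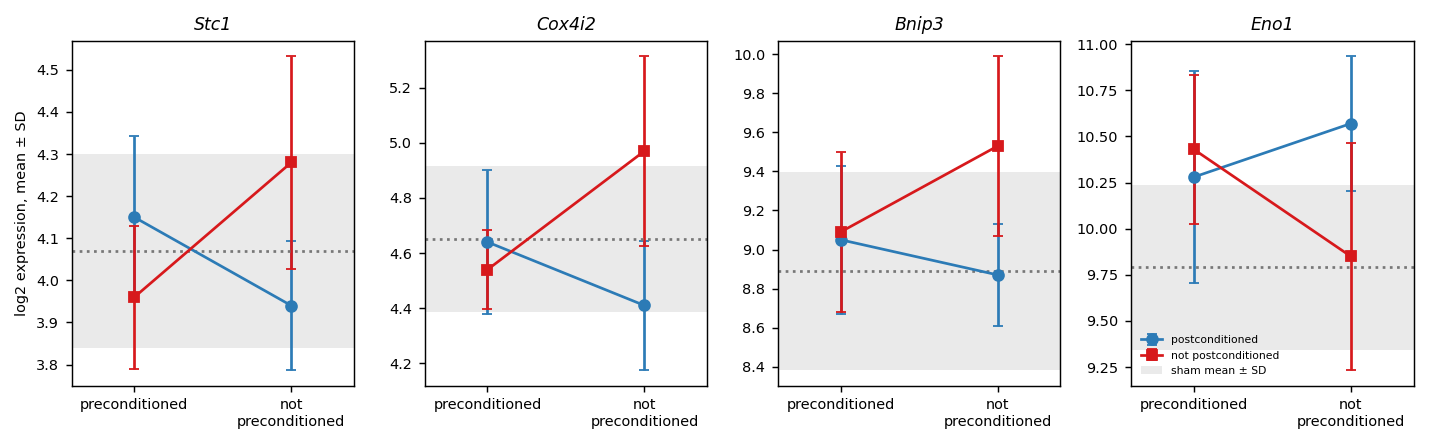
Group means ± SD of log2 expression (y axis) of Stc1, Cox4i2, Bnip3 and Eno1 by preconditioning (x axis) and postconditioning (blue with, red without; n = 10 per point); the grey band is the sham mean ± SD (n = 8), and each panel has its own y axis. The interaction values were 0.54 for Stc1, 0.67 for Cox4i2, 0.62 for Bnip3 and -0.87 for Eno1, and the last was -0.71 without IPC+IPO rat 38, whose Eno1 of 8.88 lowers the IPC+IPO mean.

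The other genes of the pathway were taken from lists put together with earlier results of these arrays known. Of 16 oxygen-sensing genes, 4 were higher and 1 was lower in IPO than in IRI livers, beside 12.4% and 10.4% of all genes. Hif1a, the oxygen-regulated HIF-1 subunit, was 0.49 ± 0.17 higher (SE, adjusted p = 0.0383) and its partner Arnt 0.56 ± 0.17 higher (adjusted p = 0.0223). Hif1an, the asparaginyl hydroxylase that blocks HIF activity (0.47 ± 0.13), and Cited2, a competitor of HIF for its coactivators (0.53 ± 0.18), were higher too, and Hif3a was lower (-0.24 ± 0.09). Of 20 fits that each left out 1 rat, the call was lost in 10 for Hif1a, 11 for Hif3a and 8 for Cited2, and without IRI rat 7 for Arnt and Hif1an. With array spread as a covariate, a fit that called 2 of 14506 genes here, none of these genes passed. Hif1a was then at 0.09 (adjusted p = 0.847), Arnt at 0.23 (adjusted p = 0.586), Hif1an at 0.26, Cited2 at 0.39 and Hif3a at -0.10. The median of the 16 was 0.28. Against sham, the 4 ischemic groups together had 4 of 16 higher and 0 lower, beside 8.98% and 2.25% of all genes. They were the prolyl hydroxylase Egln2 (0.63 ± 0.15, adjusted p = 0.0053), the ligase subunits Elob (0.45 ± 0.09) and Rbx1 (0.52 ± 0.15), and Cited2 (0.47 ± 0.16). On leaving out 1 rat, Cited2 lost this call in 17 of 48 fits and Rbx1 in 3 of 48. With array spread as a covariate (449 of 14506 genes called) Elob still passed, at 0.30 (adjusted p = 0.0244). Egln2 (0.34, adjusted p = 0.0954), Rbx1 (0.29) and Cited2 (0.34) then did not. Between IRI and sham livers 0 of 16 passed as deposited. With that covariate Egln2 (0.53, adjusted p = 0.0178) and Elob (0.30, adjusted p = 0.0351) passed there, in a fit that called 854 of 14506 genes.

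Of 43 further HIF targets, 8 were higher and 1 was lower in IPO than in IRI livers, with a median of 0.09, beside 12.4% and 10.4% of all genes. Angptl4, a lipoprotein lipase inhibitor, was 2.43-fold higher (adjusted p = 0.0112), the transferrin receptor Tfrc 2.04-fold (adjusted p = 0.0155) and the heme oxygenase Hmox1 1.71-fold (adjusted p = 0.0139). The glycolytic Gapdh (0.55 ± 0.16) and the oxidoreductase Ero1a (0.58 ± 0.17) were higher, and Pdgfb, a growth factor for pericytes, was lower (-0.43 ± 0.11, adjusted p = 0.0136). Tfrc, Gapdh and Ero1a no longer passed without IRI rat 7. With array spread as a covariate none of these named genes passed, and Angptl4 was at 0.77 (adjusted p = 0.271). In the 4 ischemic groups together 6 of 43 were higher than in sham and 0 lower, beside 8.98% and 2.25% of all genes, among them the glycolytic enzymes Tpi1 (0.57 ± 0.13), Pgk1 (0.47 ± 0.13) and Pfkl (0.48 ± 0.15). Insig2, which restrains sterol synthesis, was 1.99-fold (adjusted p = 0.00293), Angptl4 1.86-fold and Hmox1 1.66-fold higher. The calls were lost on leaving out 1 rat in 6 of 48 fits for Pfkl, 3 for Pgk1 and 2 for Angptl4. With array spread as a covariate none of these named genes passed for the 4 ischemic groups together, and Insig2 was at 0.54 (adjusted p = 0.0566). For IPC against sham livers alone, Insig2 still passed with that covariate (0.73, adjusted p = 0.0399). Between IRI and sham livers 0 of 43 passed, and Tpi1 (0.57 ± 0.16, adjusted p = 0.0952) and Ero1a (-0.48 ± 0.18, adjusted p = 0.24) had the smallest p. With array spread as a covariate both passed there, Tpi1 at 0.47 (adjusted p = 0.0145) and Ero1a at -0.57 (adjusted p = 0.0164). That fit called 854 of 14506 genes for this comparison.

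Among 20 paralogs of the members, Pfkfb1, the liver form of Pfkfb3's enzyme, was lower in the 4 ischemic groups together (-0.75 ± 0.18, adjusted p = 0.00579) and Egln2 was higher. Pfkfb1 averaged 8.53 ± 0.60 in IPC+IPO, 8.52 ± 0.40 in IPO, 8.04 ± 0.45 in IPC and 8.27 ± 0.47 in IRI livers, against 9.08 ± 0.44 in sham livers (SD). With array spread as a covariate it was -0.85 ± 0.19 and still passed (adjusted p = 0.0109). Between IRI and sham livers Pfkfb1 passed with that covariate (-0.85, adjusted p = 0.0145) and not as deposited (-0.82, adjusted p = 0.0784). Of 48 called values of such non-member genes over all comparisons, 5 passed with that covariate, 43 did not, and 0 changed sign while called. After a renewed quantile normalization 28 of 48 passed.

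Between members, within groups and over 48 arrays, the highest correlations were those of Eno1 with P4ha2 (0.632) and with Ldha (0.559), and of Vegfa with P4ha2 (0.560) and with Pfkfb3 (0.549). With the slope on array spread removed, these 4 pairs correlated at 0.363, 0.747, 0.419 and 0.630, in the same order, and Eno1 and Bnip3 at -0.525. Arrays share their spread and their group, so these are descriptions. The genes most like each member were ranked by Pearson r over the 48 arrays with group means removed. For Vegfa they were Mdm4 (0.944), Srsf11 (0.930) and Snrnp70 (0.927). For Eno1 they were Maea (0.945), Hal (0.944) and Atp5f1a (0.942), for Ldha Sec13 (0.782), Msra (0.771) and Mocs3 (0.769), and for Bnip3 Serpina10 (0.806), Gch1 (0.805) and Mpc2 (0.805). For P4ha2 they were Gpld1 (0.831), Ptprg (0.781) and Ppm1l (0.769), and for Pfkfb3 Rapgef5 (0.767), Fosl2 (0.740) and Per1 (0.712). The dimmer members had weaker companions: Hk2 had Pinlyp (0.725), Mthfd1l (0.722) and Cuzd1 (0.721), and Cox4i2 had Nfatc4 (0.735), Slc24a4 (0.694) and R3hdml (0.686). Stc1 had Sftpc (0.681), Zfp423 (0.637) and Kcng4 (0.633), and Egln3 had Itpr3 (0.612), Spata31f3 (0.609) and Tm4sf19 (0.608).

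The 10 members had 14 probe sets. The 3 of Eno1 correlated at 0.991 to 0.998 over the 48 arrays, and the 2 of Bnip3 at 0.991. Between IPO and IRI livers the further probe sets of Eno1 gave 0.75 and 0.72, and that of Bnip3 -0.66. The 2 probe sets of Ldha went apart (r = 0.070 within groups). The chosen Ldha probe set, 10707137, ran from 10.75 to 12.04 over all rats, and the other, 10908861, from 5.82 to 13.01.

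**Figure D5:**
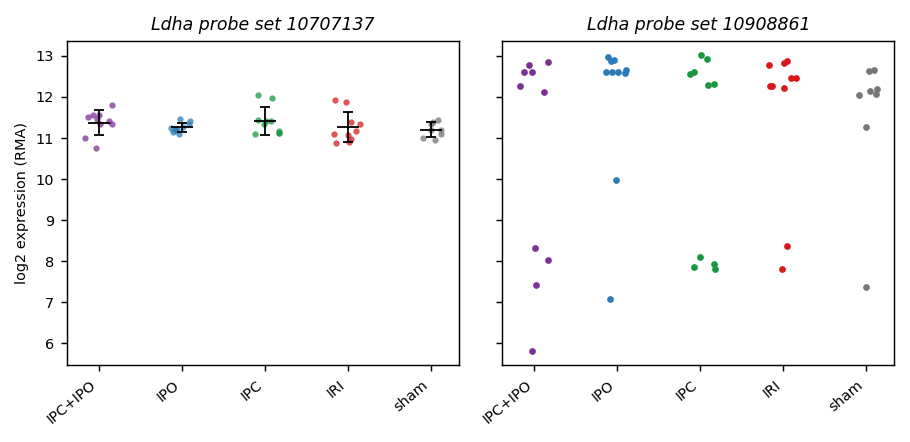
Log2 expression (RMA, y axis) of the chosen (left, with mean ± SD) and the second (right) probe set of Ldha in each rat, by group (x axis). The chosen set stays between 10.75 and 12.04, and the second falls into high values (11.26 to 13.01) and 13 low values (5.82 to 9.98).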

How the data were processed

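Liver RNA of 48 rats was measured on Affymetrix arrays, and the authors deposited log2 values per probe set, made with RMA in Affymetrix Expression Console, per the submitters' processing notes. Versions and quality filters are not given in the sources used here. The table held 29215 probe sets, of which 15310 had a single gene symbol in GEO's platform annotation, 323 several and 13582 none. For each of 14506 genes the probe set of highest mean was used. Groups came from the sample titles, and no 2 arrays were identical. The 5 groups were fitted in 1 model with limma 3.58.1 in R 4.3.3 (43 residual degrees of freedom), tests were two-sided, and p-values were adjusted by Benjamini-Hochberg over all genes. Nothing in the labels says more of replication than 1 rat per array. The members, the gene lists and the tests were chosen with earlier results of these data known. Non-member genes were named where they passed in a comparison, up to the 6 of smallest p (the 2 of smallest p where none passed), and as the 3 genes of highest r with a member. The code was tested on simulated data. Alternatives were a trended robust variance, array weights, spread as a covariate, renewed quantile normalization, median centring, other probe set choices, dim genes left out, a threshold of 0.01, fits of the groups compared alone, and each array left out. Leaving out both arrays of lowest spread, and removing the slope on spread from correlations, were added after seeing the data. Python 3.11.15 and matplotlib 3.10.9 drew the figures.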

Additional observations from a re-analysis of the deposited data

Results flagged for a closer look

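For each member in each group, the highest and the lowest rat were compared with the rest by Dixon's ratio of the gap to the group's range. Of 50 such groups 5 stood out, and chance gives about 1 in 20. Hk2 of IRI rat 7 was 5.74, with the next value at 5.26 (ratio 0.474), and that array had the second lowest spread. Eno1 of IPC+IPO rat 38 was 8.88, with the next value at 9.80 (ratio 0.485), on the array of lowest spread. Pfkfb3 of sham rat 46 was 6.18, with the next value at 5.53 (ratio 0.693). Bnip3 of sham rat 47 was 7.82, with the next value at 8.66 (ratio 0.55), and without this rat the difference of Bnip3 between IRI and sham livers was 0.49 in place of 0.64. Stc1 of IPC rat 11 was 4.37, with the next value at 4.06 (ratio 0.471).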

How the results depend on the processing

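No paired analysis was possible because the rats carry numbers from 1 to 48 and no number occurs in more than 1 group. Called members numbered 4 for IPO against IRI, 2 for IPO against sham and 0 in the other comparisons as deposited. With array weights there was 1 for IRI against sham (1894 of 14506 genes called). For IPC against IRI there was 1 with array weights (368 genes called higher and fewer lower). There were then 3 for IPC+IPO against IRI (4484), 2 for IPC against sham (7051) and 4 for IPC+IPO against sham (9007). The mean of the ischemic groups against sham then had 1 (8315), and the main effect of postconditioning 4 (5582). In the same order, 35, 4, 0, 955, 525, 1629 and 0 genes were called as deposited. With array spread as a covariate there were 2 for IRI against sham (854 genes), 0 for IPO against IRI (2 genes) and 0 for IPO against sham (0 genes). A renewed quantile normalization left 0 for IPO against sham (1365 of 14506 genes called), and P4ha2 then was 0.23 between IPO and IRI livers (adjusted p = 0.111). Leaving out the dimmest 33.3% of genes, which drops members, left 1 for IPO against sham (2989 of 9671 genes called). The median interaction was then -0.205, against 0.165 over all 10 members, of which Stc1 and Cox4i2 were chosen on it (over the other 8 it was 0.028). A threshold of 0.01 left 0 for IPO against IRI and 0 for IPO against sham. A fit of the groups compared alone gave 1 for IPC against sham (785 of 14506 genes called). Without both arrays of lowest spread there was 1 each for IPC against sham, IPC+IPO against sham, the mean of the ischemic groups against sham, and the main effect of postconditioning. On leaving out single rats, counts ranged from 2 (without IRI rat 7) to 5 (without IRI rat 1) for IPO against IRI, 1 to 2 for IPO against sham, 0 to 2 for IPC+IPO against IRI, and 0 to 1 for IRI against sham, IPC against sham, IPC+IPO against sham, the mean of the ischemic groups and the main effect of postconditioning. They stayed at 0 for IPC against IRI and for the main effect of preconditioning. For the threshold of 0.01 and the fits that left out arrays, counts over all genes are not given here. Over all genes, 3307 were called for IPO against IRI as deposited, 6098 with array weights, 1383 after the quantile normalization and 2 with the spread covariate. No called difference of a member changed sign under any alternative run (signs of uncalled ones were not followed), and the cause of the changes in counts was not tested. Differences of the 4 dimmest members rest on signals low on the array's scale.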

Other observations

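The second probe set of Ldha, 10908861, fell into separate ranges of values, with a boundary at 10 set after seeing them. In 13 of 48 rats it was 5.82 to 9.98, and in the others 11.26 to 13.01. Low values occurred in 4 of 10 IPC+IPO rats, 2 of 10 IPO rats, 4 of 10 IPC rats, 2 of 10 IRI rats and 1 of 8 sham rats, so in every group. Its variance ranked 2 among 29215 probe sets. No difference of this probe set between groups passed for IPO against IRI (0.25 ± 0.93, SE, adjusted p = 0.845) or IPC+IPO against IRI (-1.15 ± 0.93, adjusted p = 0.478) with limma. What sets the 2 ranges apart was not tested.

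Vegfa varied together with the splicing genes Srsf11 and Snrnp70 and the p53 regulator Mdm4, and this remained with the slope on array spread removed (r = 0.913, 0.916 and 0.933 over 48 arrays). The companions of Eno1 were Maea (0.879), the liver enzyme Hal (0.908) and the ATP synthase subunit Atp5f1a (0.880) on the same measure. For Pfkfb3 they were Rapgef5 (0.783), the RNA helicase gene Ddx5 (0.753) and the AP-1 gene Fosl2 (0.740). These are descriptions across arrays.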
